A study of Vicia sativa with 8 samples.

Results

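The secretory peroxidase unigenes of common vetch (Vicia sativa, cultivar Lanjian 3) were examined across 8 organs. A member was any unigene, that is any sequence assembled from the reads, whose best match in the NCBI nr protein database carried the word peroxidase without ascorbate, glutathione, thioredoxin or phospholipid. Of 142 unigenes with the word, 23 were left out by that condition, which left 119 members among 71553 unigenes. The 112 members called class III type below were those left when 7 with text for other proteins were set aside. The text itself said class III for 29 members. The other 7 were 3 matches to the beta-galactosidase BGAL1, whose text lists peroxidase among its functions, 3 matches to haloperoxidase-related proteins, and Unigene62268, matched to a "glutathionine peroxidase 6" whose spelling slipped past the condition.

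The 8 groups were the sepals, the petals of each type (dorsal, lateral and ventral), the carpels and the stamens of flowers at floral stage 12 on plants of approximately 45 days, and the leaves and roots of 2-week-old seedlings. All plants were of the same cultivar, the labels name no treatment, and they place all 8 groups in a greenhouse. Flowers were pooled for the floral organs, and each organ gave 1 RNA-Seq library. The libraries had a median of 5706811 uniquely aligned reads, and the smallest held 85.2% of the reads of the largest. With 1 library per organ there was no replicate spread and no test across organs, so differences between organs are descriptions, and the age of the plant and the floral against vegetative origin cannot be told apart.

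Class III peroxidases are secreted heme enzymes of plants that work mainly in the cell wall and the vacuole. With hydrogen peroxide they oxidise phenolic compounds, which cross-links wall proteins and polymerises lignin and suberin, and in another cycle they release reactive oxygen species that loosen the wall. The family expanded greatly in land plants, and in Arabidopsis many of its genes are expressed mainly in roots, where lignified and suberised barriers form in the endodermis and the vascular tissue.

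The members were mostly fragments. Their length ran from 150 to 2909 bp with a median of 320 bp, against 302 bp for all unigenes, and 17 were at least 1000 bp long. They fell on 93 distinct nr proteins, and 20 of these proteins were the match of more than 1 member and covered 46 members, so that several members may be pieces of 1 transcript or close paralogs. The number in a name such as peroxidase 27 is that of the matched protein in its own species and does not make the unigene its ortholog. Some matches were weak by their E-value, the number of such matches expected by chance. It was 3e-06 for Unigene51398, 2e-06 for Unigene21890 and 6e-06 for Unigene61794, against 1e-103 for Unigene70385. For members with a weak match, the class III type label rests on that match alone. A GO function was listed for 60 members, of which 54 carried antioxidant activity and 49 iron ion binding, the latter the property of a heme enzyme. A GO component was listed for 42, of which 14 were placed in the extracellular region, wall or encapsulating structure and 20 in a cytoplasmic vesicle. Response to stress was listed for 47 members.

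Expression was measured as RPKM, reads per kilobase of unigene per 1000000 uniquely aligned reads, and levels of different members are compared only on that scale. The reads of a member summed over the 8 libraries ran from 10 to 9397, with a median of 655 against 236 for all unigenes, and 13 members had under 30. In bulk tissue, fewer cells of an expressing type and less RNA per cell cannot be told apart. Intervals below are at 95% and cover counting error only. The shallowest library was that of the leaves, in which a count of 0 allows up to 3 reads, or 0.561 RPKM for a unigene of 1 kb.

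The organ labels were checked against words in the nr text. Of 10 chlorophyll-binding or Rubisco small-subunit unigenes, 9 were highest in leaves and 1 in roots. The 5 PISTILLATA or AP3 unigenes, petal and stamen identity genes, summed to between 1191 and 1223 RPKM in the petals and 775 in stamens, and to at most 113 in the other organs. The 1 unigene matched to the MADS box protein M8 stood at 55.2 RPKM in carpels and at no more than 2.28 elsewhere. Of 79 unigenes with the word pollen, 28 were highest in stamens, and their summed RPKM was 10167 in stamens, 4101 in ventral petals and 1028 to 2625 in the other 6 organs, so the ventral petal library carried pollen-annotated message that the dorsal and lateral petal libraries, at 1838 and 1877, did not carry to that level. Words for roots were less selective. Of 181 such unigenes 51 were highest in roots, where 19.8% of all unigenes were highest. Their summed RPKM was 9923 in roots but 10856 in lateral petals, so by its sum this list did not mark the root library.

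The peroxidases as a family were most abundant in roots, then carpels, then sepals. The summed RPKM of the 119 members was 19565 in roots, 13059 in carpels, 9607 in sepals, 4856 in stamens and 4424 in leaves, and it was 3506, 3098 and 2635 in the dorsal, ventral and lateral petals. As a share of all aligned reads, which gives long unigenes more weight, the members took 8213 of each 1000000 reads in roots (interval 8139 to 8287), 3885 in carpels (3833 to 3938) and 1149 in lateral petals (1122 to 1177). The order of roots, carpels and sepals was the same on both scales and when RPKM was rescaled by TMM factors. Leaves and stamens exchanged places in the sum of the 119 members, with 5725 in leaves and 4866 in stamens after TMM. Unigene62268, which is no class III type, made up 830 of this leaf sum and 81.4 of this stamen sum. Before TMM the class III type members alone summed to 3600 in leaves and 4664 in stamens. Their sums after TMM were not computed, so the exchange is not shown for them.

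**Figure D1:**
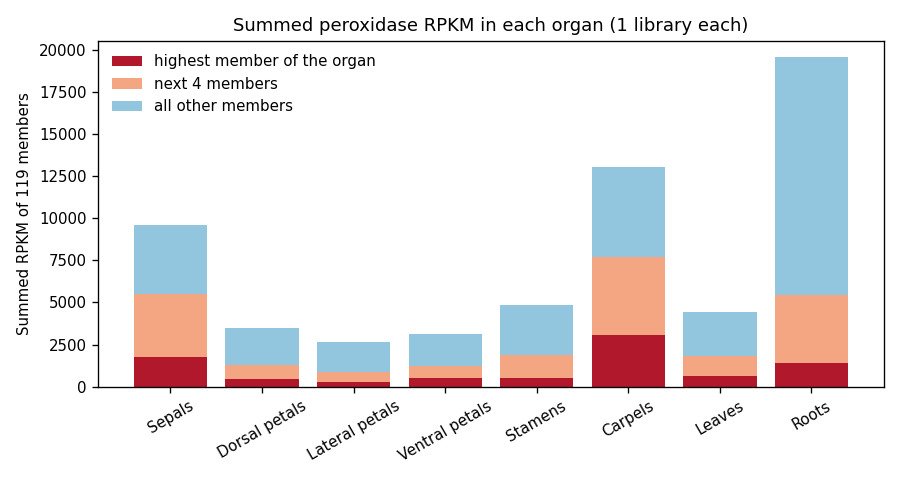
Stacked bars give the summed RPKM (y axis, linear) of the 119 members in each of 8 organs (x axis, 1 library each), divided into the highest member of that organ, its next 4 members and all others. The highest 5 members hold 58.7% of the carpel sum and 57.1% of the sepal sum but 27.9% of the root sum.

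The 3 leading organs reached their sums in different ways. In carpels 1 member, Unigene21030, held 23.4% of the sum, and the highest 5 members held 58.7%. In sepals Unigene2463 held 18.3% and the highest 5 held 57.1%. In roots the highest member held 7.13% and the highest 5 held 27.9%, and 44 members were at or above 100 RPKM, which was 37.0% of members against 6.70% of all unigenes. The median member stood at 44.1 RPKM in roots and at 1.42 to 6.62 RPKM in the other 7 organs. The root total was thus spread over many members, and the carpel and sepal totals over few.

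Roots were the organ of highest RPKM for 67 members, or 56.3%, against 19.8% of all unigenes. Sepals were highest for 13 members, or 10.9% against 9.06% of all unigenes, and dorsal petals for 9, or 7.56% against 10.3%. Stamens and carpels were highest for 11 each, or 9.24%, against 14.3% and 14.8%. Ventral petals and leaves were highest for 4 each, or 3.36%, against 8.66% and 11.9%, and lateral petals for 0 against 11.2%. Before TMM scaling, roots and, slightly, sepals were thus above the share of all unigenes and the other organs below it. After TMM scaling roots were highest for 63 members, carpels for 18, leaves for 10 and sepals for 9. The shares of all unigenes after TMM were not computed, so the places of sepals, carpels and leaves against them rest on the scaling. When members that share an nr match were merged and their RPKM summed, roots were highest for 53 of the 93. The median log2 ratio of roots over the mean of the other organs, with 1 RPKM added to both, was 2.06 for members and -0.16 for all unigenes. This log2 ratio was above 1 in 70 members, or 58.8%, against 15.04% of all unigenes, and below -1 in 28, or 23.5%, against 27.9%. The excess was thus on the root-high side, and the share of root-low members was slightly under that of all unigenes.

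**Figure D2:**
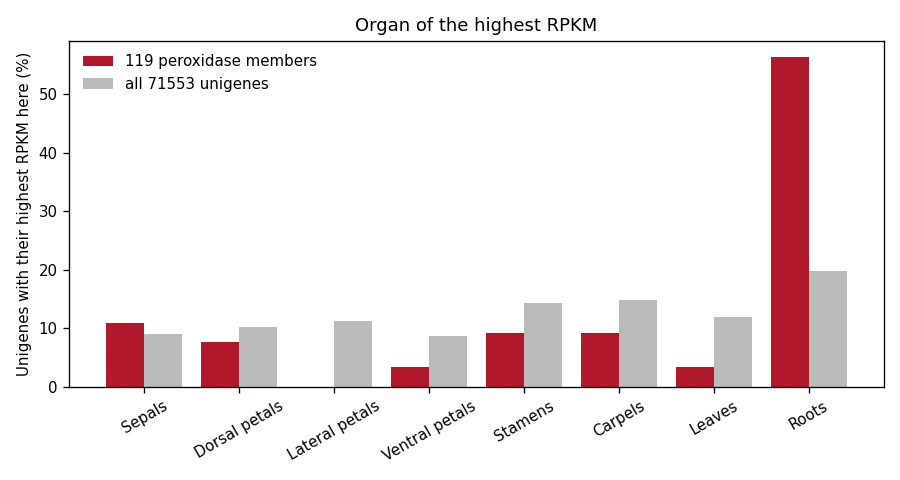
Bars give the percentage (y axis) of the 119 peroxidase members and of all 71553 unigenes whose highest RPKM was in each organ (x axis). Roots hold 56.3% of members against 19.8% of all unigenes, and lateral petals hold no member.

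The organ profile of the family was also narrow. The index tau, which is 0 for equal RPKM in all organs and 1 for expression in a single organ, had a median of 0.912 in members against 0.637 in all unigenes, and it exceeded 0.9 in 63 members, or 52.9% against 12.0%. Reads were present in all 8 libraries for 60 members (50.4%, against 66.9% of all unigenes). Reads were absent from all 6 floral organs for 21 members (17.6%, against 1.02% of all unigenes), and 11 members had reads in roots only. Among members with 30 or more reads the median tau was 0.903, against 0.594.

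**Figure D3:**
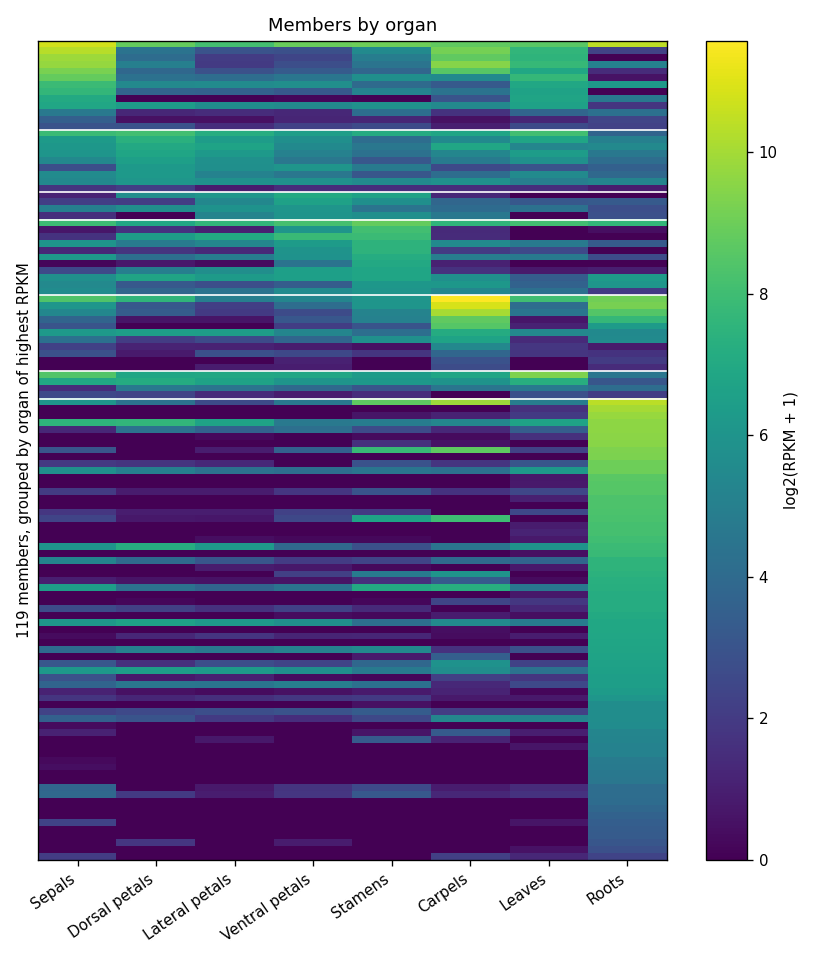
Colour gives log2(RPKM + 1) of each of the 119 members (rows, grouped by organ of highest RPKM with white lines between groups, then sorted by that RPKM) in 8 organs (columns). The 67 members at the bottom are highest in roots, and many of them are near 0 in every other organ.

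Enrichment was called by the study's rule. A unigene was enriched in an organ when its RPKM there was more than 2 times the highest RPKM of the other organs (the Ratio) and exceeded the mean of the other organs by more than 3.75 of their SDs (the Z-score). In any 1 of the 8 organs, 72 members were enriched, or 60.5%, against 23.5% of all unigenes. In roots alone, 55 members were enriched, or 46.2%, against 6.18% of all unigenes, and all 55 were class III type. The root count was 54 with at least 10 root reads required, 55 after TMM scaling, 55 with libraries thinned to the smallest, and 50 with a Ratio above 4.

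The 55 root members held 63.6% of the summed root RPKM of the family. Their root RPKM ran from 6.06 to 1033 with a median of 119, and their root reads had a median of 374 and a lowest value of 9. Of the 44 with a read in another organ, the ratio of roots to the second organ ran from 2.42 to 599 with a median of 61.1, and 29 had a ratio above 20, 10 between 4 and 20 and 5 under 4. The share enriched in roots was 58.8% of the 17 members at or above 1000 bp, 40.0% of the 25 between 500 and 999 bp, 50.0% of the 56 between 201 and 499 bp and 33.3% of the 21 at or under 200 bp, against 5.45% to 6.58% of all unigenes in these length classes. The root excess was therefore present in long and short members alike.

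**Figure D4:**
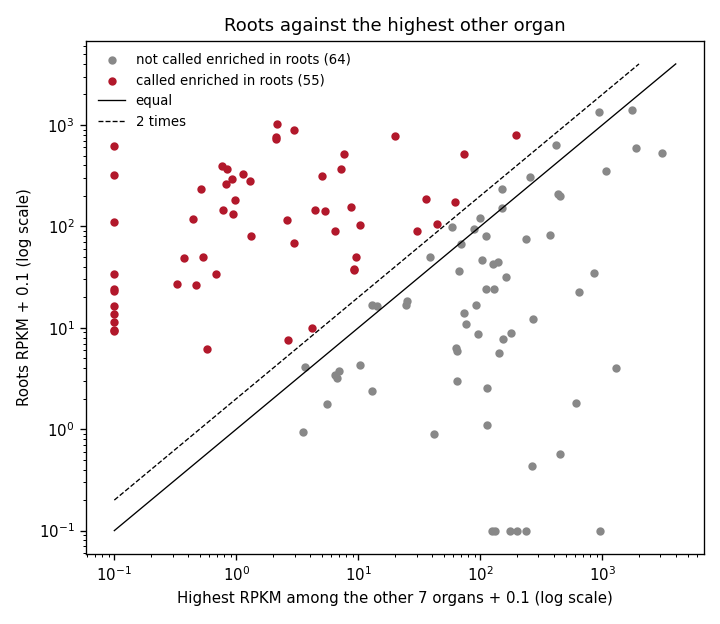
Each point is 1 of the 119 members, with the highest RPKM among the other 7 organs plus 0.1 (x axis, log scale) against root RPKM plus 0.1 (y axis, log scale); lines mark equal values and a factor of 2. The 55 members called enriched in roots (red) include 11 with no read elsewhere, at the left edge, and several members at the bottom had no root read.

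A stricter description was restriction, meaning 100 or more reads in roots and at most 5% of that RPKM in each other organ. It held for 31 members, or 26.1%, against 0.650% of all unigenes. These 31 members had 28 distinct nr matches, so few of them shared a match. Their root RPKM ran from 26.4 to 1033 with a median of 261, on 103 to 5529 reads. In 11 of them the 6 floral libraries held no read at all.

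The root-enriched member with the highest RPKM was Unigene45280, matched to peroxidase 27 of Arabidopsis lyrata. It stood at 1033 RPKM in roots (1640 reads) and 2.06 in leaves (3 reads), and at 0 reads in each of the 6 floral libraries. The ratio of roots to leaves was 501, with an interval of 171 to 2432. Unigene45320, matched to the same protein and of the same length of 272 bp, stood at 627 RPKM in roots on 996 reads and had no read in any other organ, which places roots at least 304-fold higher than 3 reads in the leaf library. Both unigenes were thus root-only or nearly so, and whether they are 2 genes cannot be told from these values.

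Unigene51398, matched to a class III peroxidase of cotton, followed with 894 RPKM in roots (1707 reads), 2.86 in leaves, 1.12 in carpels, 0.569 in stamens and 0 in the other 4 organs. Its ratio of roots to leaves was 313 (interval 134 to 965). Unigene66848, matched to a peroxidase 1, had 761 RPKM in roots and at most 2.00 elsewhere, and its profile correlated with that of Unigene51398 at r = 0.995. This r, like those below, is Pearson's r on log2(RPKM + 1) over the 8 organs among the 106 members with 30 or more reads, and since it rests on 8 libraries it is given as a description.

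Not every abundant root member was confined to roots. Unigene41765, matched to a poplar peroxidase, stood at 788 RPKM in roots, 185 in sepals, 106 in leaves, 38.4 in carpels and 28.4 in stamens, and at 196, 103 and 24.9 in the dorsal, lateral and ventral petals. Its ratio of roots to dorsal petals was 4.03 (interval 3.53 to 4.61). The outer floral organs and the leaves were the next highest and the ventral petals and stamens the lowest. Unigene36655, a 221 bp unigene with the same nr match, had 184 RPKM in roots and 36.0 in sepals.

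The following members were chosen after their values were seen, for their read numbers. Unigene70385, 1211 bp long and matched to a rice peroxidase 89, had 5529 reads and 782 RPKM in roots and between 1.45 and 19.7 RPKM in the other 7 organs. Unigene54527, matched to the flax peroxidase FLXPER4, had 733 RPKM in roots, 2.02 in stamens and less in carpels, and 0 in the other organs. Unigene69470, matched to an asparagus peroxidase, had 261 RPKM in roots on 1572 reads summed over the libraries and at most 0.727 elsewhere. The pair Unigene46744 and Unigene42387, which share a match to peroxidase 1 of Arabidopsis, had 396 and 370 RPKM in roots, with only the leaf library giving any other read.

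The second organ of the 67 root-highest members was leaves for 16, carpels for 15, sepals for 9, stamens for 7, dorsal petals for 6, lateral petals for 2 and ventral petals for 1, and 11 had no second organ. In the 12 root-highest members that were not enriched, the ratio to the second organ was 1.02 to 1.69. Of these 12, Unigene10294, Unigene30528, Unigene698 and Unigene61952 are described with other organs below. Unigene35815 had 234 RPKM in roots and 149 in dorsal petals, and Unigene65608 had 93.3 in roots and 89.5 in dorsal petals. Unigene65080 had 153 RPKM in roots and 150.0 in carpels, and after TMM scaling carpels were the higher. The other 5 had 4.01 to 98.8 RPKM in roots.

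By RPKM, carpels carried the highest single peroxidase level, that of Unigene21030, a fragment of 158 bp. By carpel reads Unigene60727 was above it, with 5002 against 2629. Of the members, 9 were enriched in carpels, or 7.56%, against 5.61% of all unigenes, a share close to the background. Of these 9, 2 rested on fewer than 10 carpel reads and 3 had a Ratio above 4. Unigene21030, matched to an apoplastic anionic guaiacol peroxidase of cotton, stood at 3059 RPKM in carpels, 529 in roots, 337 in sepals, 258 in leaves and 64.8 in stamens, and at 189, 30.1 and 38.1 in the dorsal, lateral and ventral petals. Carpels exceeded roots by a ratio of 5.78 (interval 5.25 to 6.38), and every organ held this message.

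Unigene60727, matched to the anionic peroxidase 15 of sweet potato, had 1884 RPKM in carpels, 589 in roots, 66.2 in sepals, 65.6 in stamens and 16.8 in leaves, and 8.17, 3.48 and 16.3 in the dorsal, lateral and ventral petals. Its ratio of carpels to roots was 3.20 (interval 3.03 to 3.38) on 5002 carpel reads. Unigene39455, matched to a fig peroxidase, had 1066 RPKM in carpels, 352 in roots, 40.5 in sepals, 35.5 in stamens, 22.2 in leaves and 2.88 to 9.55 in the petals, with a ratio of 3.03 (interval 2.73 to 3.37). Both members were high in carpels and roots and low in petals, and their profiles correlated at r = 0.980.

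**Figure D5:**
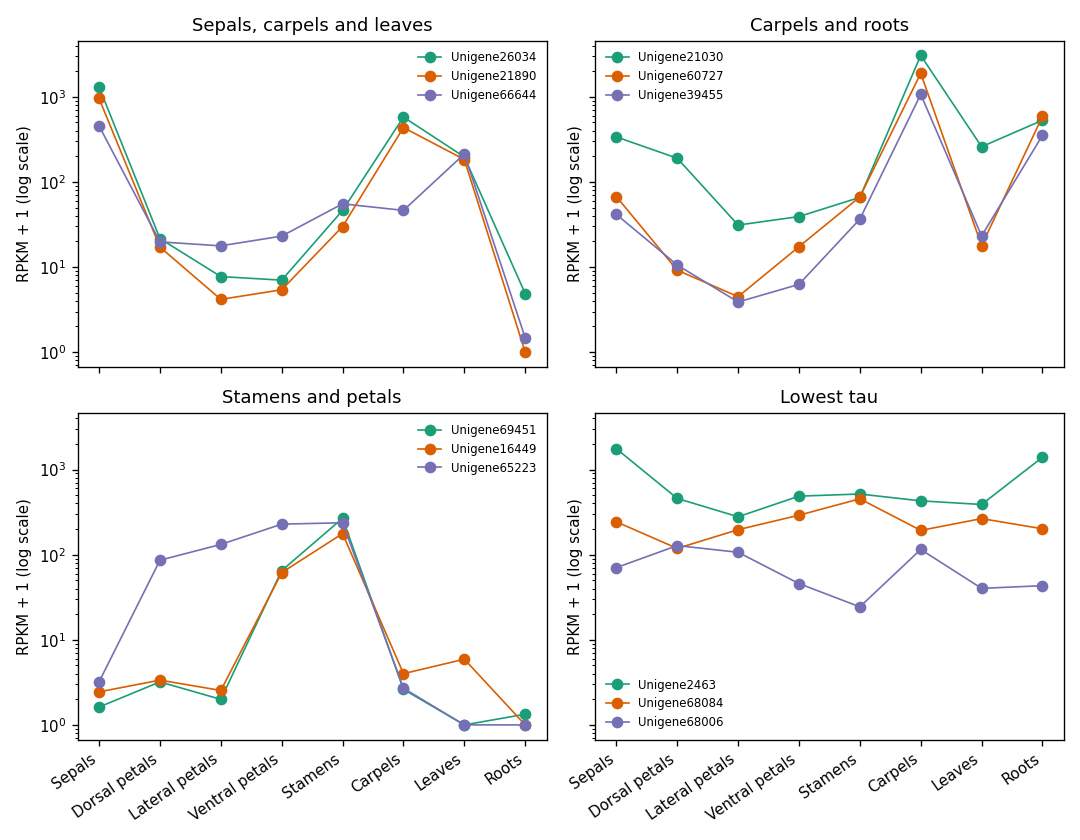
Points give RPKM + 1 (y axis, log scale) of 3 members in each of 4 panels over 8 organs (x axis, 1 library each), and lines only join the points of a member. Unigene26034 and Unigene21890 are high in sepals and carpels and near the bottom in roots; Unigene21030, Unigene60727 and Unigene39455 are highest in carpels; Unigene69451 and Unigene16449 are high in stamens and then ventral petals; and Unigene2463 is high in every organ.

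Further members were high in both carpels and roots. Of the 11 members highest in carpels, 7 had roots as the second organ, among them Unigene23627 and Unigene3347 on 6 carpel reads each. Of the root-highest members, 15 had carpels second and 16 had leaves second. The share of such pairs over all unigenes was not computed, so these counts show no excess. Unigene10294, matched to a white poplar peroxidase and among the 5 members of highest mean RPKM, stood at 1349 RPKM in roots, 944 in carpels, 419 in stamens, 63.9 in sepals and 27.8 in leaves, and at 19.3, 5.05 and 23.7 in the dorsal, lateral and ventral petals. Roots exceeded carpels by a ratio of 1.43 (interval 1.33 to 1.53), which became 1.09 after TMM scaling. Unlike the members above, this one was also high in stamens.

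Unigene30528 and Unigene698, which share the nr match of Unigene60727, had roots, carpels and stamens as their highest organs, as Unigene10294 did, and correlated with it at r = 0.957 and r = 0.953. Unigene30528 had 637 RPKM in roots, 418 in carpels and 225 in stamens, followed by ventral petals at 10.96. Unigene698 had 309 RPKM in roots, 255 in carpels and 103 in stamens, and at most 4.70 elsewhere. Reads covered 97.9% of Unigene30528 in roots, but 80.4% in carpels and 79.4% in stamens. For Unigene698 the covered share was 99.2% in roots, 70.8% in carpels and 67.05% in stamens. Whether part of the carpel and stamen reads came from a similar transcript was not tested. After TMM scaling Unigene698 was higher in carpels, at 310 RPKM, than in roots, at 286, so its order of these organs rests on the scaling. These members were compared after their values were seen. Unigene47501, matched to a pea peroxidase, had 433 RPKM in carpels, 210 in roots and 33.5 in stamens, and Unigene21377, matched to an alfalfa peroxidase, had 372 in carpels and 81.9 in roots.

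Carpels also had a high level of dividing-cell words, with 106 of 231 histone or cyclin unigenes highest there and a summed RPKM of 30226 against 4326 to 10762 in the other organs. The part of this in the carpel members was not tested. A carpel-enriched member without the root level was Unigene58269, matched to the Arabidopsis peroxidase 55, with 41.3 RPKM in carpels, 0.793 in roots and at most 3.69 elsewhere.

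Sepals were the highest organ for the member with the largest mean RPKM. Enriched in sepals were 4 members, or 3.36%, against 1.20% of all unigenes, and after TMM scaling the count was 1. Unigene26034, with the same nr match as the carpel member Unigene21030, stood at 1300 RPKM in sepals, 576 in carpels, 195 in leaves, 45.2 in stamens and 3.87 in roots, and at 20.6, 6.72 and 6.01 in the dorsal, lateral and ventral petals. The ratio of sepals to carpels was 2.25 (interval 2.04 to 2.49) and became 1.73 after TMM scaling. Sepals, carpels and leaves were high and roots and petals low.

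Unigene21890, matched to peroxidase 1 of common bean, had 954 RPKM in sepals, 434 in carpels, 182 in leaves, 28.9 in stamens, 0 reads in roots, and 16.1, 3.16 and 4.40 RPKM in the dorsal, lateral and ventral petals. Its ratio of sepals to carpels was 2.20 (interval 1.95 to 2.48), and 1.69 after TMM scaling. Its profile was almost that of Unigene26034 (r = 0.986), and Unigene48550, a poplar match with 613 RPKM in sepals, 381 in carpels and 119 in leaves, followed both (r = 0.980 and r = 0.978). These 3 unigenes are 161 to 298 bp long and carry different nr matches. Unigene26324, named after its values were seen and matched to the same poplar protein as a root-enriched unigene, had 861 RPKM in sepals, 716 in carpels, 212 in leaves and 34.6 in roots, and after TMM scaling its carpel level, 871, was above its sepal level, 806.

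Unigene66644 differed in that leaves and not carpels came second. It is 731 bp long with a rice match and stood at 453 RPKM in sepals, 212 in leaves, 54.2 in stamens, 45.3 in carpels and 0.469 in roots, and at 18.7, 16.7 and 22.1 in the dorsal, lateral and ventral petals. The ratio of sepals to leaves was 2.14 (interval 1.97 to 2.32), and 1.55 after TMM scaling. Unigene43708, a match to a cork oak peroxidase, had the nearest profile (r = 0.994), with 199 RPKM in sepals, 100.2 in leaves and 0 reads in roots. Both were highest in the green organs, sepals and leaves, and almost silent in roots.

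In stamens 4 members were enriched, or 3.36%, against 3.93% of all unigenes, which is no excess. Unigene69451, 1024 bp long with a maize match, stood at 267 RPKM in stamens and 64.0 in ventral petals, against 2.20 and 0.995 in dorsal and lateral petals, 1.62 in carpels, 0.622 in sepals, 0.335 in roots and 0 reads in leaves. The ratio of stamens to ventral petals was 4.17 (interval 3.71 to 4.68). Unigene70213, with the same maize match and a profile correlated at r = 0.993, had 126 RPKM in stamens and 20.4 in ventral petals. Both were nearly silent outside these organs.

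Unigene16449, 1103 bp long, matched a stigma-specific peroxidase precursor of the ragwort Senecio squalidus, a protein named for the pollen-receiving surface of the carpel. In vetch it stood at 176 RPKM in stamens, 60.6 in ventral petals, 3.00 in carpels, 4.91 in leaves, 1.44 in sepals, 2.36 and 1.54 in dorsal and lateral petals, and 0 reads in roots. The ratio of stamens to ventral petals was 2.90 (interval 2.58 to 3.28), and carpels were among the low organs, against the name of the match.

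Unigene69451, Unigene70213 and Unigene16449 were at 24.0%, 16.3% and 34.4% of their stamen level in ventral petals, and at or under 1.34% in dorsal and lateral petals. Among the 27 pollen-word unigenes highest in stamens with 10 or more stamen reads, the median was 30.6% in ventral petals, 1.55% in dorsal petals and 0.649% in lateral petals. The ventral petal values of these members thus lay where those of pollen-annotated unigenes lay, and the part of pollen or anther RNA in them was not tested. The fourth, Unigene26038, a 177 bp match to a litchi peroxidase 2, was broader, with 180 RPKM in stamens, 81.1 in ventral petals, 62.1 in sepals, 45.7 in carpels, 39.3 in lateral petals, 27.4 in dorsal petals, 25.3 in leaves and 8.71 in roots. Its ratio to ventral petals was 2.22 (interval 1.69 to 2.93).

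No member was enriched in any single petal type, dorsal, lateral or ventral, against 0.646%, 0.608% and 1.29% of all unigenes. Leaves likewise had 0, against 4.03%. After TMM scaling, leaves had 1. This was Unigene62268, the misspelt glutathione peroxidase and no class III type, at 642 RPKM in leaves, 349 in sepals and 22.5 in roots. With the 3 petal types averaged as 1 category, 1 member was enriched, against 4.95% of all unigenes. This was Unigene29275, one of the BGAL1 matches, at 76.6, 52.7 and 65.3 RPKM in the dorsal, lateral and ventral petals, 25.5 in stamens and 4.84 to 10.8 in the other organs. With libraries thinned to the smallest, the category held 2 members, the other being the BGAL1 match Unigene186, which was called in 4 of 20 thinnings. In none of these settings was a class III type member called in petals.

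Petals and stamens together, the region of B-class floral genes, had 8 enriched members, or 6.72%, against 10.9% of all unigenes. Among these 8 were Unigene69451, Unigene16449 and Unigene70213, already counted in stamens and low in dorsal and lateral petals. The BGAL1 match Unigene29275, already counted in petals, was another. Unigene65223, matched to a rice peroxidase 136 and named after its values were seen, stood at 236 RPKM in stamens and at 85.1, 131 and 227 in the dorsal, lateral and ventral petals, at 2.20 in sepals and 1.70 in carpels, and had 0 reads in leaves and roots. Unigene43190 had 102 RPKM in stamens and 52.6, 67.4 and 132 in these petals, and at most 1.43 elsewhere. Unigene61794, matched to a peroxidase 40, had 112 RPKM in stamens and 30.8, 51.1 and 91.0 in the petals, and at most 4.92 elsewhere.

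These 3 members were all chosen after their values were seen. In them the dorsal petals were the lowest of the petals, the lateral petals intermediate and the ventral petals the highest. Dorsal petals held 36.0%, 51.5% and 27.4% of the stamen level and ventral petals 96.3%, 129% and 80.9%. Unlike Unigene69451, Unigene70213 and Unigene16449, they also had message in dorsal and lateral petals. The part of pollen or anther RNA in their ventral petal level was not tested. Unigene46261, with an Arabidopsis peroxidase 47 match, ran from 3.11 RPKM in dorsal petals to 40.2 in lateral and 96.5 in ventral petals, with 53.4 in stamens. Unigene36019, which shares its match, had the opposite order, with 91.8, 54.8 and 22.9 RPKM in dorsal, lateral and ventral petals and 7.72 in stamens.

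Over the whole family, ventral petals were more than 2-fold above dorsal petals in 22 members and dorsal above ventral in 18, against 12.0% and 9.13% of all unigenes, after 1 RPKM was added. Dorsal petals were more than 2-fold above lateral petals in 14 members and lateral above dorsal in 4, against 5.31% and 4.75% of all unigenes. Differences between dorsal and ventral petals thus ran in both directions.

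Reads were found in all 8 libraries for 60 members, and the 3 described here had at least 100 reads in each. They were not the flattest members, since tau was lowest in the haloperoxidase-related Unigene54206, at 0.313. Unigene2463, a 214 bp match to a class III peroxidase of the orchid Oncidium, had the highest mean RPKM, at 1756 in sepals, 1395 in roots, 515 in stamens, 428 in carpels and 388 in leaves, and 457, 278 and 486 in the dorsal, lateral and ventral petals. Its ratio of sepals to roots was 1.26 (interval 1.18 to 1.34), and it was the leading member in 6 of the 8 organs. Its tau was 0.679, above the median of 0.637 for all unigenes. Without it the family sums were 18170 in roots, 12631 in carpels and 7851 in sepals.

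Unigene68084, matched to peroxidase 1 of Sesuvium, had the most reads, 9397 in all, with 452 RPKM in stamens, 264 in leaves, 242 in sepals, 200.5 in roots and 192 in carpels, and 118, 196 and 290 in the dorsal, lateral and ventral petals. Its ratio of stamens to ventral petals was 1.56 (interval 1.46 to 1.67), and its tau was 0.53. Unigene68006, matched to pericarp peroxidase 3 of litchi, had 127 RPKM in dorsal petals, 114 in carpels, 106 in lateral petals, 69.4 in sepals, 44.7 in ventral petals, 42.2 in roots, 39.2 in leaves and 23.4 in stamens. Its ratio of dorsal petals to carpels, 1.11, had an interval of 0.988 to 1.25 and turned to 0.809 after TMM scaling, so neither organ can be called the higher.

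Low levels were called where the Ratio was under 0.5 with a Z-score under -1.5, in which the Ratio is again the organ over the highest of the others. Such members were few. Roots had 5, against 4.29% of all unigenes, sepals 1 against 0.692%, dorsal petals 1 against 0.577%, stamens 3 against 5.39%, carpels 2 against 17.5% and leaves 3 against 8.39%. The carpel share of 1.68% was thus well below the background, while in roots, where 4.20% of members were called, it was close to it. The Z-score is in SDs of the other organs, so only members fairly even across those organs can be called. Median tau was 0.912 in members against 0.637 in all unigenes, so these shares are not compared on equal terms.

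The members called low in roots were broad, which the rule itself requires. Another 6 members had no root read and were not called. Unigene20344, an Arabidopsis ATP17a match, had 88.0 to 271 RPKM in the other 7 organs and 12.2 in roots. Unigene50127 had 61.7 to 155 RPKM in the others and 7.66 in roots, and Unigene63202, a spinach match, had 42.4 to 114 and 2.43. These 3 members, named after their values were seen, were present in every aerial organ and lowest in roots.

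Unigene61875 and Unigene61952 were low in stamens. Unigene61875, which shares its match with Unigene68084, stood at 17.2 RPKM in stamens, 140 in carpels, 73.5 in sepals, 44.1 in roots and 41.3 in leaves, and at 90.3, 85.6 and 37.1 in the dorsal, lateral and ventral petals. Its profile was nearest to that of Unigene68006 (r = 0.953), with the dorsal and lateral petals and carpels high and stamens lowest in both. Unigene61952, matched to the Arabidopsis ATP19a, had 17.8 RPKM in stamens, 27.9 in leaves and 45.7 to 120 in the other organs, highest in roots.

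The members called low in carpels were Unigene28593, at 0.983 RPKM in carpels and 1.82 to 6.81 elsewhere, and the haloperoxidase-related Unigene33738, at 0 reads in carpels and 0.856 to 6.32 RPKM elsewhere. Both rested on few reads, 36 and 27 over the 8 libraries, and with 30 reads required the count was 1. The depth behind both is too low to separate carpels from the lower of the other organs.

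Enzymes that work with or beside the class III peroxidases were counted by words in the nr text, with the same log2 ratio of roots over the mean of the other organs and the same call in roots. The NADPH oxidases, membrane enzymes that make the superoxide from which hydrogen peroxide forms, were the nearest, with a median of 2.27 over 27 unigenes and 13 enriched in roots, or 48.1%, and 17 highest in roots. The monolignol pathway, which makes the lignin precursors, had a median of -0.23 over 139 unigenes and 29 enriched in roots, or 20.9%. Laccases, which also polymerise lignin, had a median of -0.88 over 49 unigenes and 3 enriched in roots. Dirigent proteins, which steer the coupling of phenolic radicals, had a median of -1.05 over 17 unigenes, with 5 enriched in roots, 8 highest in carpels and a carpel sum of 6439 RPKM. Extensins, wall proteins that peroxidases cross-link, had 8 of 95 enriched in roots and a median of 0.14 that turned to -0.02 after TMM scaling.

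Enzymes that remove hydrogen peroxide inside the cell were counted in the same way. Of 11 ascorbate peroxidases, 0 were enriched in roots and 9 were highest in leaves, with a median of -0.85. Of 11 peroxiredoxins, 0 were enriched in roots and 6 were highest in leaves, with a median of -1.48. Of 9 glutathione peroxidases 0 were enriched in roots, with a median of 0.35, which became 0.04 after TMM scaling. The single catalase unigene was highest in leaves, at 586 RPKM. Superoxide dismutases, which make hydrogen peroxide from superoxide, had 1 of 13 enriched in roots and a median of 0.07 that turned to -0.03 after TMM scaling. These lists were not tested against one another, and the values for all unigenes, a median of -0.16 and 6.18% enriched in roots, stand beside them. After TMM scaling the median was -0.26 for all unigenes and 2.18 for the NADPH oxidases.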

How the data were processed

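RNA of 8 vetch organs was sequenced as 1 library per organ, grouped by the organ in its label. The authors deposited, for each library, the count of uniquely aligned reads per unigene, the unigenes coming from a de novo assembly, the RPKM computed from that count, and the percent of each unigene covered by reads. Which aligner was used is not stated in the labels, files or methods read here, and no genome build applies. Reads shared by near-identical unigenes are lost from unique counts, so paralogs may be understated. The authors' notes say that poly(A) RNA was primed with random hexamers, and strand was not used.

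The 8 tables were merged on the unigene identifier, with 0 reads wherever a library did not list it. RPKM was recomputed from the counts and differed from the deposited RPKM by a relative 5.58e-09 at most. Members were found by words in the deposited nr text. The members and lists were chosen with earlier results of these data known. The kinds of member by text, the category of petals plus stamens, the class III type alternative, 20 thinnings and the TMM values of single members and lists were added after seeing the data. Words for AGa or M7, chosen for stamens and carpels, matched 0 unigenes. The added word AGAMOUS matched 9, whose sum was highest in stamens at 1391 RPKM. It was 821 in sepals, 616 to 694 in the petals and 574 in carpels, so this list did not mark carpels.

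The members named in detail were, for each organ and for petals as 1 category, up to 3 enriched members with at least 100 reads there, by RPKM; the 5 with the highest mean RPKM; the 3 with the lowest tau among those with at least 100 reads in every library; and 2 each downregulated in carpels and in stamens, which gave 21. All other members named were chosen after their values were seen, also where this is not said beside them.

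No test across organs was run. A unigene with reads in a single organ was counted as enriched there. Intervals at 95% are exact Poisson intervals for reads and exact binomial intervals for ratios of reads. The call rules were tested on simulated data. TMM factors came from edgeR 4.0.16 in R 4.3.3, and the rest used Python 3.11.15, pandas 2.3.3, numpy 2.4.6 and scipy 1.17.1. No unigene sequences were used here. The alternatives changed the scaling, the read minimum, the Ratio, the depth, the pseudocount, the scale of tau and the counting of members that share a match.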

Additional observations from a re-analysis of the deposited data

How the results depend on the processing

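With 1 library per organ no setting can show how organs vary between plants. No paired analysis was possible because each organ has 1 library and no test was run. TMM scaling shifted RPKM by 0.37 in leaves and 0.28 in carpels and by -0.17 to 0.00 in the other organs (log2). After it, summed RPKM was 18110 in roots, 15896 in carpels, 8994 in sepals and 5725 in leaves, and 3106, 2366 and 2849 in the dorsal, lateral and ventral petals. Enriched members were 1 in sepals and 1 in leaves, downregulated members 1 in carpels and 1 in lateral petals, and members with their highest RPKM there 18 in carpels, 5 in dorsal petals and 10 in leaves. The median log2 of roots over the others was 1.98, and the ratio of Unigene68006 reversed to 0.809. Without Unigene2463 the sums were 18170 in roots, 12631 in carpels, 7851 in sepals, 4341 in stamens and 4037 in leaves, and 3050, 2358 and 2612 in the petals in that order. Per 1000000 reads they were 8213, 3885, 3028, 2405 and 1795, and 1328, 1149 and 1439, in the same order. A Ratio above 4 left 3 enriched members in carpels, 2 in stamens, 0 in sepals and 0 in petals. Class III type members alone, an alternative chosen after seeing the data, gave 0 enriched in petals and 2 highest in leaves. With 30 reads required, the log2 median was 1.87 and 1 member was downregulated in carpels, and with a pseudocount of 0.1 that median was 2.24. Tau on log2(RPKM + 1) had a median of 0.645 in members. The median of 0.637 for all unigenes is on linear RPKM, so it is no background for this value. Merging members that share a match left 6 highest in stamens. With 10 reads required no enriched count moved by more than 1.5 times. With thinned libraries the count in petals became 2, and over 20 thinnings, added after seeing the data, it was 1 to 2 in petals, 54 to 55 in roots, 7 to 9 in carpels, 4 to 6 in sepals and 4 to 5 in stamens.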
